A study of Mus musculus with 2 samples.

Results

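The 8 genes described here serve DNA lesion bypass, excision repair and 2 neighbouring functions, and were followed through the cell types of an irradiated and a control limb injury. They are Mgmt, Rev1, Polk, Polh, Ddb2, Xpc, Rrm2b and Ercc5, matched by symbol to the 32285 genes of the deposited feature lists, of which 26688 had at least 1 UMI (a unique molecular identifier, standing for 1 captured transcript). Mgmt and Rev1 were chosen by their ratio of irradiated to control level in the keratinocytes of these libraries, so every value of that contrast is a description and supports nothing. Mgmt belongs strictly to direct reversal of damage and Rrm2b to nucleotide supply, while the other members fall under the label as it stands.

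Both libraries were droplet-based 3′ transcriptomes of unsorted cells from the Achilles tendon injury of male C57BL/6 mice aged 8 to 10 weeks, collected 7 days after the tendon was cut and 30% of the body surface was burned. The irradiated library came from injured mice given 1 dose of 7 Gy of X-rays to the injury through a collimator of 2 cm, and the control library from injured mice without radiation. Radiation arms of 10 mice each are listed for day 1 and for day 3 after surgery. The description of the series names day 3 for this library, without making clear what the day counts from. The number of mice behind each library was not given in the sources used here. With 1 library per group, library and treatment cannot be told apart, no test was made, and every interval below covers counting error only.

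DNA that has been chemically altered can be dealt with in several ways. Mgmt encodes the O6-methylguanine-DNA methyltransferase, which pulls an alkyl group off guanine onto itself and is used up in doing so. The translesion polymerases copy past a damaged base without removing it: Rev1 inserts cytosine and acts as the scaffold on which other bypass polymerases assemble, Polk (polymerase kappa) extends past bulky adducts on the minor groove, and Polh (polymerase eta) copies accurately past ultraviolet dimers. Nucleotide excision repair cuts out a short stretch around a bulky lesion: Ddb2 and Xpc recognise the damage and Ercc5 (XPG) makes the incision on the 3′ side. Rrm2b encodes a small subunit of ribonucleotide reductase that supplies deoxynucleotides outside S phase and is known in human cells as a p53 target.

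In the GRCm38 assembly with GENCODE M21 genes, Mgmt lies on the forward strand at chr7:136894614-137130266, with at most 5 exons per transcript. The other members are at chr1:38052786-38129801 (Rev1, reverse), chr13:96480690-96542579 (Polk, reverse), chr17:46171355-46202645 (Polh, reverse), chr2:91211572-91236982 (Ddb2, reverse), chr6:91489305-91515888 (Xpc, reverse), chr15:37923952-37961318 (Rrm2b, reverse) and chr1:44147744-44181260 (Ercc5, forward). Some members overlap other counted genes: Eif5b reaches into the end of Rev1, Acp2 into the end of Ddb2, Gm17622 lies inside Polk and Gm49085 at the start of Rrm2b, all on the opposite strand, and Gm37062 lies inside Rev1 on its own strand. Whether the counting used strand was not given in the sources used here, so reads from such partners cannot be told apart with certainty.

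The stretches just upstream of the annotated starts are shown because the members that differed most between the libraries, Mgmt, Rev1, Polk and Ercc5, can then be set beside Polh, whose level hardly differed. RefSeq start tables (GRCm38.p6) held 7 entries, for 5 of the 8 members, and a second start each of Mgmt and of Polk, inside the gene, is not shown. Each sequence runs 5′ to 3′ on the gene's strand and covers up to 250 bases before the start, cut where the GENCODE gene begins. Capitals mark GGGCGG (a GC box) or CCAAT on either strand. Coordinates are chr7:136894336-136894585 (Mgmt, forward), chr1:38129802-38129916 (Rev1, reverse), chr13:96542580-96542829 (Polk, reverse), chr17:46202646-46202891 (Polh, reverse) and chr1:44147494-44147743 (Ercc5, forward).
Mgmt: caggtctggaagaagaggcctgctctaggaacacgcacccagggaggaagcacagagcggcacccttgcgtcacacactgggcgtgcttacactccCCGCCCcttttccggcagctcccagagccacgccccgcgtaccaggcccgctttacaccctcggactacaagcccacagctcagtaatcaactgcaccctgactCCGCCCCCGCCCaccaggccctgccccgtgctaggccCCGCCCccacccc
Rev1: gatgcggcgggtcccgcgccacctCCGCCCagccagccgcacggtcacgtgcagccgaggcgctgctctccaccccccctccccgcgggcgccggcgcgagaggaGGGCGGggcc
Polk: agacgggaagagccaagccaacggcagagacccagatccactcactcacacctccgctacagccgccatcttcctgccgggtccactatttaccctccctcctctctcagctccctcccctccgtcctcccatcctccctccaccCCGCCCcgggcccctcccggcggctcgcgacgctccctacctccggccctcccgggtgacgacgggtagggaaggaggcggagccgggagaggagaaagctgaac
Polh: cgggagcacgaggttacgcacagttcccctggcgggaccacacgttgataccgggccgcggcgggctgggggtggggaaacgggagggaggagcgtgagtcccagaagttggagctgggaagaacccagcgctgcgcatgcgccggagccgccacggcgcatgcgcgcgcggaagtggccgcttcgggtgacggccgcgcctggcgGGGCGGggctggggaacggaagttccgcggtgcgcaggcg
Ercc5: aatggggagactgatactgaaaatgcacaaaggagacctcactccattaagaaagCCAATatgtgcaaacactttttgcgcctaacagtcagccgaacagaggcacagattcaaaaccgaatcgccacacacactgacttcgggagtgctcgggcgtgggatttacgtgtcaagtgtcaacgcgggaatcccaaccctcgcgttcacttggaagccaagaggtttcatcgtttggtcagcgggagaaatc

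The 4 GC boxes of the Mgmt stretch and the 2 of Rev1 compare with 1 each for Polk and Polh and 0 for Ercc5, which instead held 1 CCAAT. Of 32851 RefSeq promoter stretches of 250 bases, longer than the 115 shown for Rev1 and the 246 shown for Polh, 32.7% held GGGCGG and 33.8% held CCAAT. CpG pairs numbered 15 in the Mgmt stretch, 19 in Polk and 14 in Ercc5, all 250 bases long. The shorter stretches held 17 in Rev1 (115 bases) and 34 in Polh (246 bases). A p53 half-site consensus, searched by name on both strands and present in 7.13% of all stretches, was found in none of the 5 stretches shown and once before the other Polk start, at chr13:96519188-96519437. TGACGTCA (1.55% of all stretches) and TATAAA (12.4%) were also in none of those shown. CACGTG (6.02% of all stretches) was in the Rev1 stretch only. A match or its absence describes these letters and nothing more.

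The irradiated library held 8302 barcodes with 111753092 UMIs (median 9118 per barcode) and the control library 11369 barcodes with 180080740 UMIs (median 10423). Barcodes above 10% mitochondrial UMIs made up 6.13% of the irradiated and 14.9% of the control library. After filtering, 7116 irradiated and 8711 control cells were kept and fell into 34 clusters, most of them named from marker genes into 12 classes that carry the ending "-like". The libraries shared 32 barcodes. All 12 keratinocyte markers were at least 2-fold above the other cells in the keratinocyte-like class, which held 1267 irradiated cells (17.8%, median 25689 UMIs) and 2108 control cells (24.2%, median 20863.5 UMIs). Levels are CPM, a gene's UMIs scaled to the UMI total of the class, and ratios are given for 6 classes, those with 200 or more cells per library. A gene counts as higher or lower where it had at least 20 UMIs over both libraries, differed by at least 1.5-fold, and the 95% counting interval left out equality, which is a rule of size and not a test.

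Mgmt reached 70.1 CPM in irradiated keratinocyte-like cells (2688 UMIs, interval 67.4 to 72.8 CPM), against 13 CPM in control ones (697 UMIs, 12 to 14 CPM), which is 5.40-fold (4.97 to 5.88). Rev1 stood at 64.2 CPM in irradiated keratinocyte-like cells (61.7 to 66.8), against 22.4 CPM in control ones (21.2 to 23.7), or 2.86-fold (2.67 to 3.07). These are the values by which both genes were chosen. Among the 16306 genes tested in the class, ordered from the highest log2 ratio, Mgmt stood at place 90, Rev1 at 292, Polk at 415 and Ercc5 at 781.

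Polk was higher as well, at 50.2 CPM in irradiated keratinocyte-like cells (48.0 to 52.5), against 20.6 CPM in control ones (19.4 to 21.9), a ratio of 2.43 (2.26 to 2.62). Polh, the third bypass polymerase, did not move with the other pair: it had 17.0 CPM in irradiated cells (15.7 to 18.4), against 17.8 CPM in control cells (16.6 to 18.9), and its log2 ratio was -0.06 (-0.21 to 0.08). So of the 3 bypass polymerases, Rev1 and Polk were above the size rule in the keratinocyte-like class and Polh was not.

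The damage recognition genes did not pass the size rule. Ddb2 had 13.6 CPM in irradiated (12.4 to 14.8) and 14.3 CPM in control keratinocyte-like cells (13.3 to 15.4), a log2 ratio of -0.08 (-0.24 to 0.08) that was 0.07 with dividing cells left out and 0.52 (-0.04 to 1.07) with cells thinned to 2000 UMIs. Xpc had 15.3 CPM in irradiated cells (14.1 to 16.6) and 14.2 CPM in control cells (13.2 to 15.2), a log2 ratio of 0.11 (-0.05 to 0.27). The incision nuclease Ercc5 stood apart from them, with 43.6 CPM in irradiated cells (41.5 to 45.7), against 23.3 CPM in control cells (22 to 24.7), which is 1.87-fold (1.73 to 2.01).

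Rrm2b had 25.3 CPM in irradiated keratinocyte-like cells (23.7 to 26.9), against 23.0 CPM in control ones (21.8 to 24.4). Its log2 ratio was 0.13 (0.01 to 0.25), under the size rule. In all, 4 of the 8 members counted as higher in keratinocyte-like cells and 0 as lower, beside 7.24% of all genes tested that counted as higher and 7.91% that counted as lower. Since the genes were picked in this contrast, nothing is read from that count.

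**Figure D1:**
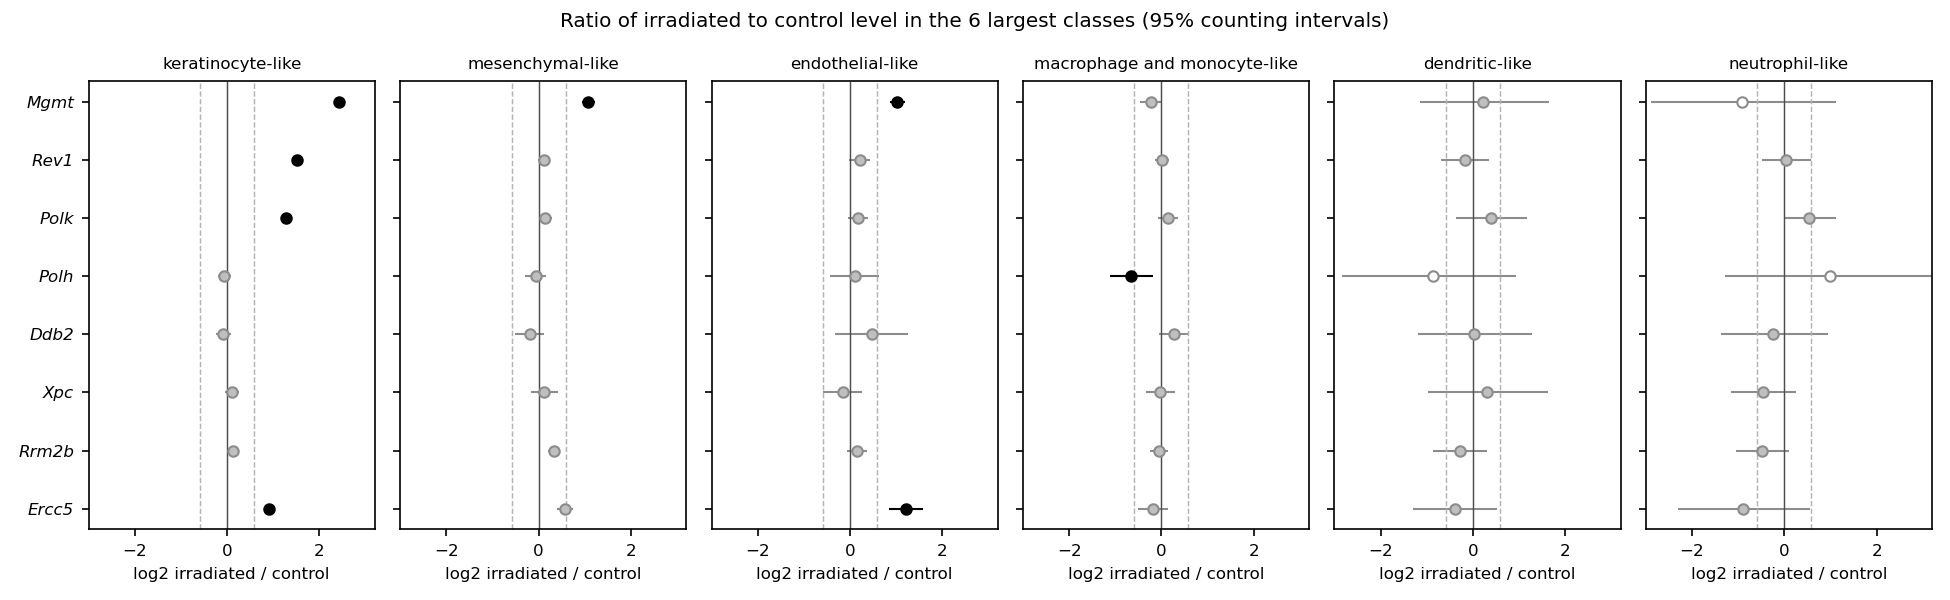
Log2 ratio of irradiated to control CPM (x axis) for each member (rows) in the 6 classes with ratios. Bars are 95% counting intervals, black points passed the size rule, grey points did not, open points had under 20 UMIs in both libraries together, and dashed lines mark 1.5-fold. Mgmt is black in 3 classes (log2 2.43, 1.08 and 1.03), Ercc5 in 2, and Polh is the 1 member black on the lower side, in macrophage and monocyte-like cells.

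The keratinocyte-like cells formed 6 clusters, and the members could be followed in each. Cluster 12, led by Krt5, Krt14 and Col17a1, held 302 irradiated and 284 control cells, and cluster 13, led by Krt15, Cxcl14, Krt17 and Col17a1 and with Lgr5 among its top 10 genes, held 279 irradiated and 253 control cells. Cluster 11, led by the suprabasal keratins Krt2, Krt10 and Krt1, held 233 irradiated and 388 control cells. Cluster 10 (Cst6, Krt79, Defb6, Krt17) held 252 irradiated and 375 control cells. Among the clusters with the wound-associated keratins Krt6a and Krt16, cluster 8 (Krt14, Krt5, Krt6a, Krt16) held 144 irradiated and 526 control cells, and cluster 21 (Krt6b, Krt16, Krt6a) held 57 irradiated and 282 control cells.

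Mgmt was higher in irradiated cells of all 6 clusters, by log2 ratios of 1.55 to 3.31. The widest ratio was in the suprabasal cluster 11, with 46.1 CPM in irradiated cells, against 4.65 CPM in control cells (log2 3.31, 2.87 to 3.78). The highest irradiated levels were elsewhere: 113 CPM in cluster 12 and 99.5 CPM in cluster 13, where control cells had 26.7 CPM in cluster 12 and 34.1 CPM in cluster 13. In the Krt6b cluster 21, Mgmt had 29.0 CPM in irradiated cells and 4.56 CPM in control cells (log2 2.67, 2.11 to 3.25).

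Rev1 passed the size rule in 5 of the 6 clusters and missed it in cluster 8, where irradiated cells had 30.2 CPM and control cells 21.7 CPM (log2 0.48, 0.25 to 0.71). Its levels ran highest in cluster 13, at 112 CPM in irradiated cells and 48.3 CPM in control cells, and in cluster 12, at 106 CPM in irradiated cells and 44.4 CPM in control cells. Its lowest levels were in cluster 21, at 15.9 CPM in irradiated cells and 5.89 CPM in control cells. The 2 clusters in which Rev1 was most abundant were thus the 2 in which Mgmt was most abundant, in both libraries. Ddb2 and Xpc, too, were most abundant in clusters 12 and 13 in both libraries.

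Polk passed in all 6 clusters, with the smallest log2 ratio in cluster 8 (0.70, 0.50 to 0.89) and the widest in cluster 13 (1.71, 1.34 to 2.08), where irradiated cells had 63.7 CPM and control cells 19.5 CPM. Ercc5 was positive in all 6 and passed in 3, clusters 10, 11 and 12, with log2 ratios of 0.92, 1.25 and 1.09. The other members did not share this pattern. Ddb2 had a negative log2 ratio in all 6 clusters, from -0.48 to -0.03, and passed the size rule in none. Polh was positive in 1 cluster, Xpc in 2 and Rrm2b in 4, none past the size rule. Rrm2b ran both ways, with 34.8 CPM in irradiated and 47.8 CPM in control cells of cluster 10 (log2 -0.46, -0.72 to -0.20) but 25.4 CPM in irradiated and 18.4 CPM in control cells of cluster 11 (0.46, 0.17 to 0.76).

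**Figure D2:**
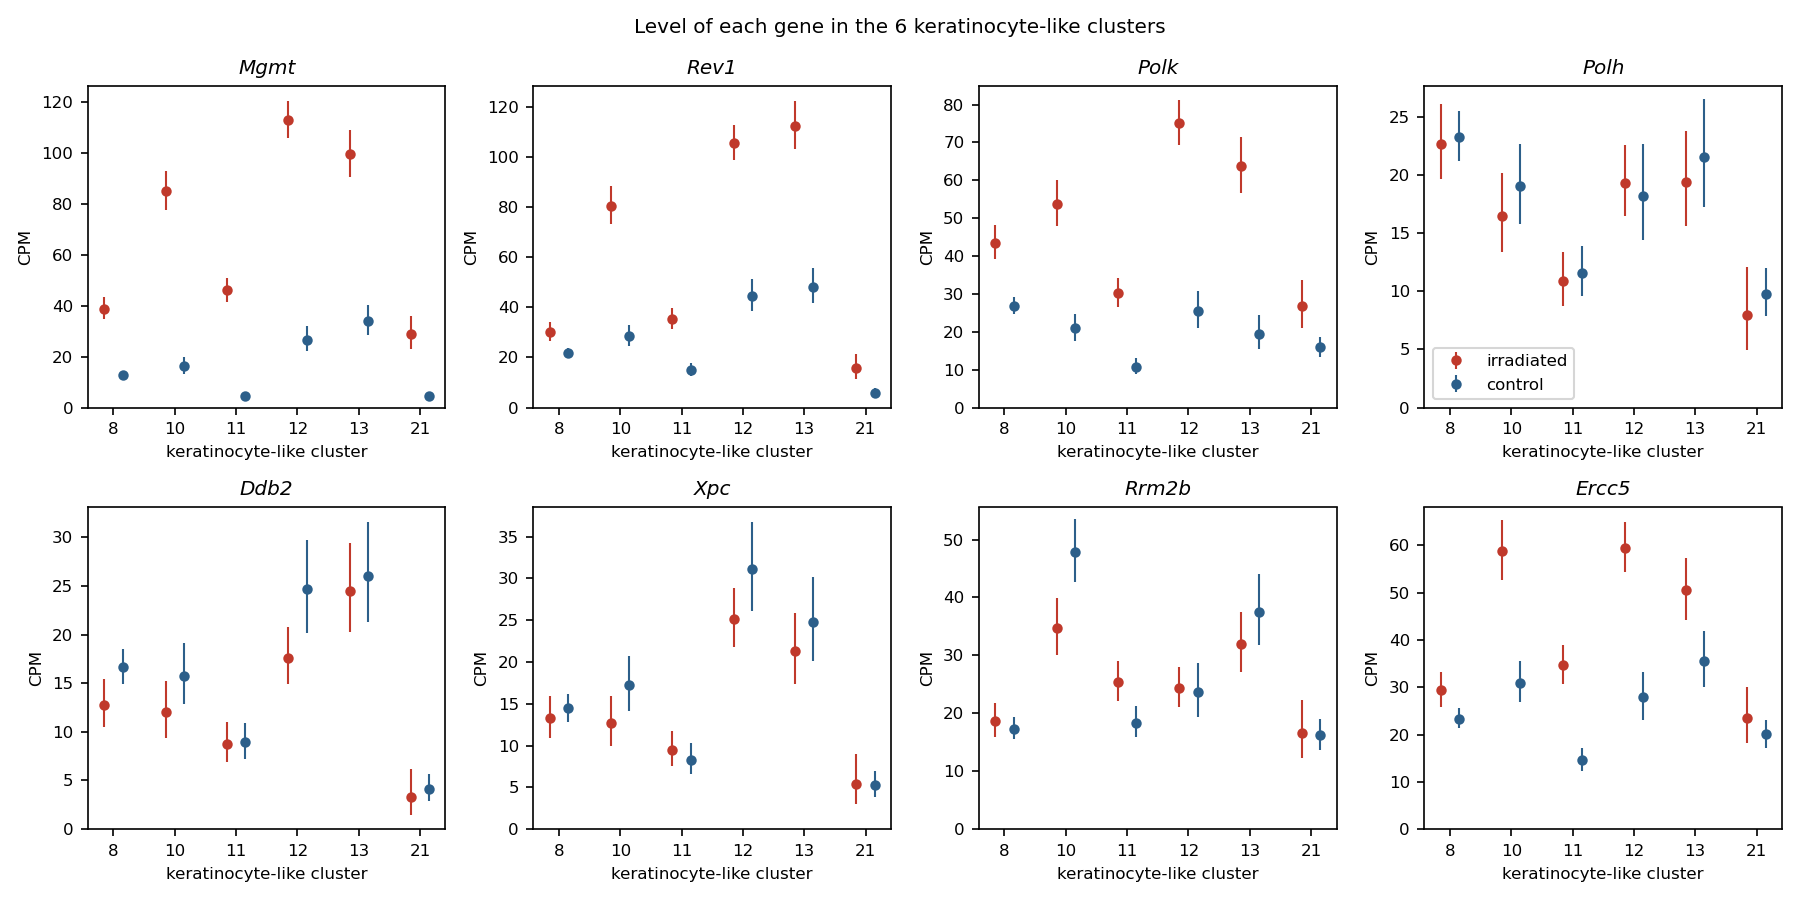
CPM of each member (y axes, linear from 0) in the 6 keratinocyte-like clusters (x axes, by cluster number), irradiated in red and control in blue, with 95% counting intervals. The red and blue points of Mgmt are apart in every cluster, from 113 against 26.7 CPM in cluster 12 to 29.0 against 4.56 CPM in cluster 21, while those of Ddb2 lie close together or with control higher.

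Cell by cell, at least 1 Mgmt UMI was seen in 61.4% of irradiated keratinocyte-like cells (58.7% to 64.1%, exact binomial interval), against 19.8% of control ones (18.1% to 21.5%). Because irradiated cells of this class were deeper, each cell was also thinned to 2000 UMIs, which left 16.2% of irradiated cells (14.2% to 18.3%) and 2.93% of control cells (2.25% to 3.76%) with an Mgmt UMI. In neutrophil-like cells, which have few Mgmt transcripts, a UMI was seen in 0.477% of irradiated cells (6 UMIs in all, median depth 3131 UMIs) and 0.597% of control cells (5 UMIs, median depth 2107.5 UMIs). The Mgmt shares in keratinocyte-like cells were above these in both libraries, also after thinning.

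The rest of the distribution moved with the share. Cells with 3 or more Mgmt UMIs were 31.1% of irradiated keratinocyte-like cells (394 cells), against 3.42% of control ones (72 cells), and the highest single cell held 32 UMIs in the irradiated and 11 UMIs in the control library. The 10% of cells richest in Mgmt held 42.4% of its UMIs in the irradiated class, against 70.4% in the control class. Without thinning, Mgmt UMIs were thus spread over a larger share of the irradiated cells.

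For Rev1, cells with 3 or more UMIs made up 28.0% of irradiated and 5.08% of control keratinocyte-like cells, and after thinning a UMI was seen in 12.1% of irradiated cells (10.3% to 14.0%) and 6.06% of control cells (5.07% to 7.19%). Cells with 3 or more UMIs of Polk were 20.4% of irradiated and 4.93% of control cells, and those with 3 or more UMIs of Ercc5 were 18.2% of irradiated and 4.79% of control cells. For Polh the shares were 4.42% of irradiated and 3.46% of control cells, and for Ddb2 2.05% of irradiated and 2.18% of control cells. The unthinned shares of cells with any UMI were higher in the irradiated class for all 8 members, yet for Polh the thinned shares were 3.30% (2.38% to 4.45%) in irradiated and 3.52% (2.76% to 4.41%) in control cells, and for Xpc 3.14% (2.24% to 4.26%) in irradiated and 3.52% (2.76% to 4.41%) in control cells. For Ddb2 the thinned shares were 3.94% (2.93% to 5.18%) in irradiated and 2.79% (2.12% to 3.596%) in control cells, and for Rrm2b 5.63% (4.42% to 7.06%) in irradiated and 5.53% (4.58% to 6.61%) in control cells. The median keratinocyte-like cell had UMIs of 4 of the 8 members in the irradiated library and of 2 in the control library, without thinning.

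**Figure D3:**
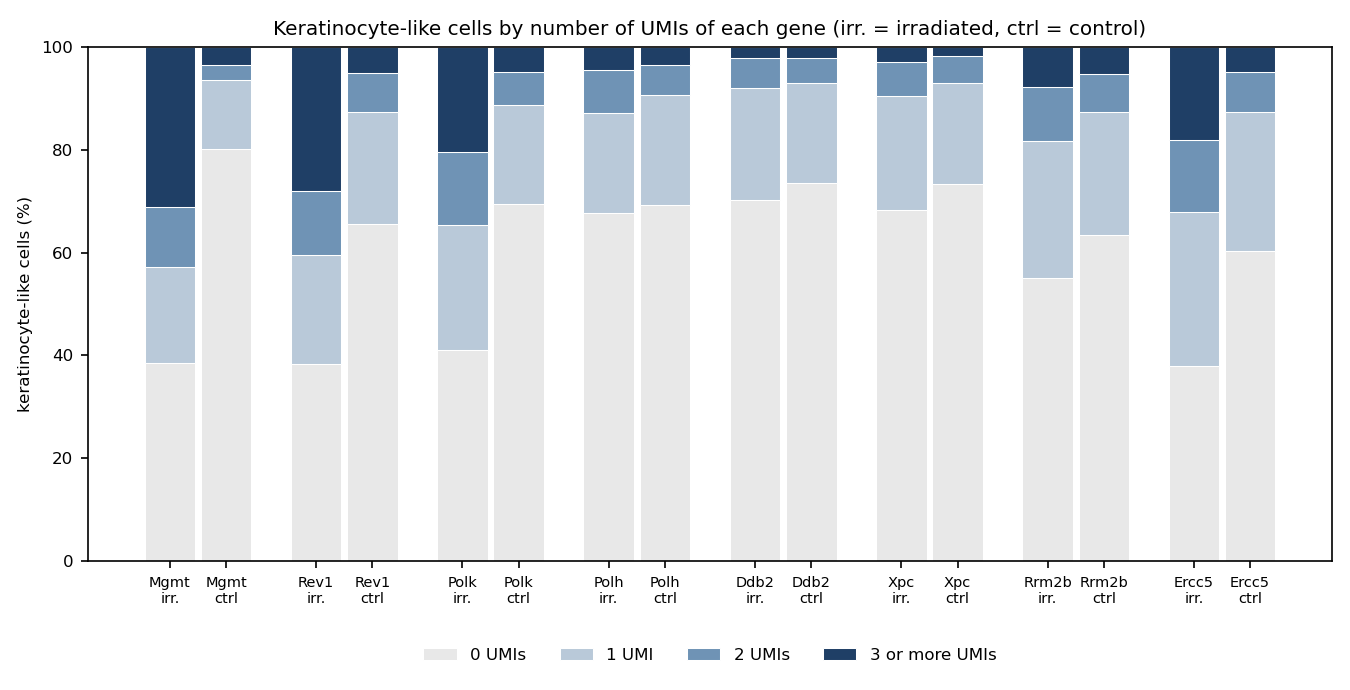
Share of keratinocyte-like cells (y axis, %) with 0, 1, 2 or at least 3 UMIs of each member, with the irradiated bar left of the control bar for each gene (1267 irradiated and 2108 control cells, not thinned). The darkest segment takes 31.1% of irradiated cells for Mgmt, against 3.42% of control cells, while for Ddb2 it takes 2.05% of irradiated and 2.18% of control cells.

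Outside the keratinocytes, Mgmt was the member that differed in most classes. In endothelial-like cells (319 irradiated, 508 control) it had 117 CPM in irradiated cells (108 to 127), against 57.5 CPM in control cells (52.9 to 62.5), a log2 ratio of 1.03 (0.86 to 1.19). Mesenchymal-like cells, the fibroblast-like cells of the injury (652 irradiated, 2325 control), had 42.6 CPM in irradiated cells (39.6 to 45.8), against 20.2 CPM in control cells (19.0 to 21.3), a log2 ratio of 1.08 (0.95 to 1.21). Taken whole, the Mgmt difference was thus about 1 log2 unit in both stromal classes and 2.43 in keratinocyte-like cells. No pair of these 3 counting intervals overlapped except that of the stromal classes with each other. Mgmt was chosen by its keratinocyte value, so nothing is read from that gap. By cluster, its log2 ratios ran from 1.55 to 3.31 in keratinocyte-like cells. The interval of keratinocyte-like cluster 13 (1.27 to 1.83) overlapped that of mesenchymal-like cluster 20 (1.09 to 1.91). Within the mesenchymal-like class Mgmt was positive in all 5 clusters, from 0.31 to 1.501, and passed the size rule in 3. It missed the rule in clusters 6 (log2 0.55, 0.31 to 0.80) and 25 (0.31, -0.76 to 1.42). Cluster 6 made up 51.7% of the irradiated and 18.8% of the control cells of the class.

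In macrophage and monocyte-like cells (2667 irradiated, 1979 control), Mgmt had 13.4 CPM in irradiated and 15.8 CPM in control cells (log2 -0.23, -0.46 to 0.00). Within that class the clusters differed: cluster 3, which carries Ccl8, Pf4 and Mrc1, had 47.2 CPM of Mgmt in irradiated cells, against 25.9 CPM in control cells (log2 0.86, 0.55 to 1.18). It made up 12.3% of the irradiated and 31.0% of the control cells of the class. Dendritic-like cells had only 12 Mgmt UMIs in the irradiated and 9 in the control library, too few to tell a difference at this depth.

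Ercc5 was higher in irradiated endothelial-like cells, at 26.6 CPM (22.5 to 31.3), against 11.5 CPM in control ones (9.49 to 13.9), a log2 ratio of 1.21 (0.84 to 1.58). With cells thinned to 2000 UMIs it was 0.55, under the size rule. In mesenchymal-like cells it had 23.9 CPM in irradiated cells (21.6 to 26.3), against 16.1 CPM in control cells (15.1 to 17.1). That ratio of 1.49 (1.32 to 1.67) lay just under the size rule of 1.5. In macrophage and monocyte-like cells Ercc5 had 7.18 CPM in irradiated cells and 8.15 CPM in control cells (log2 -0.18, -0.51 to 0.14).

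Rev1 and Polk, so different between the libraries in keratinocyte-like cells, did not pass the size rule in the other classes with ratios, taken whole. Rev1 had 47.2 CPM in irradiated and 40.9 CPM in control endothelial-like cells (log2 0.21, -0.03 to 0.44), 36.4 CPM in irradiated and 33.4 CPM in control mesenchymal-like cells (0.12, -0.01 to 0.25), and 38.7 CPM in irradiated and 38.4 CPM in control macrophage and monocyte-like cells (0.01, -0.13 to 0.16). For Polk the log2 ratios were 0.17 (-0.05 to 0.38) in endothelial-like, 0.15 (0.01 to 0.29) in mesenchymal-like and 0.14 (-0.06 to 0.36) in macrophage and monocyte-like cells. In neutrophil-like cells Polk was at 0.54 (-0.01 to 1.12) and Rev1 at 0.04 (-0.48 to 0.59). In dendritic-like cells Polk was at 0.39 (-0.36 to 1.17) and Rev1 at -0.17 (-0.69 to 0.35). The upper ends of these intervals lie below the keratinocyte-like intervals of the same genes, 1.42 to 1.62 for Rev1 and 1.18 to 1.39 for Polk. Rev1 was chosen by its keratinocyte value, so nothing is read from its gap to the other classes. Single clusters of these classes departed from the whole: Polk passed the size rule in 2 of 5 mesenchymal-like clusters and Rev1 in 1 of 5. Polk also passed in endothelial-like cluster 27, from 38 UMIs in irradiated and 2 UMIs in control cells (log2 2.14, 0.18 to 5.23), and in neutrophil-like clusters 9 (log2 1.504, 0.08 to 2.92) and 14 (2.10, 0.14 to 5.20), likewise from small counts. In macrophage and monocyte-like cluster 3 Polk passed as well, at 30.7 CPM in irradiated and 17.7 CPM in control cells (log2 0.79, 0.41 to 1.18). Rev1 passed in macrophage and monocyte-like cluster 32, from 24 UMIs in 13 irradiated and 14 UMIs in 18 control cells (log2 1.65, 0.64 to 2.71). That cluster was under the minimum of 20 cells per library set for counts of clusters.

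Polh was lower in irradiated macrophage and monocyte-like cells, at 2.92 CPM (78 UMIs), against 4.58 CPM in control ones (77 UMIs), a log2 ratio of -0.65 (-1.12 to -0.18). That call was lost under 6 of the alternative settings, among them when dividing cells were left out. The class also had fewer UMIs of Mki67, a marker of dividing cells, with 15.2 CPM in irradiated and 22.7 CPM in control cells, and the part of cell division in the Polh value was not tested further. In the other classes taken whole, Polh, Ddb2, Xpc and Rrm2b had no value past the size rule. Within mesenchymal-like cluster 20 Polh was higher, at 17.3 CPM in irradiated and 7.55 CPM in control cells (log2 1.20, 0.63 to 1.76). In mesenchymal-like cells Rrm2b had 36.9 CPM in irradiated cells (34.1 to 39.9), against 29.2 CPM in control cells (27.8 to 30.5), a log2 ratio of 0.34 (0.21 to 0.47). Further from equality, but with wider intervals that included it, were Rrm2b at -0.48 (-1.05 to 0.10) and Xpc at -0.46 (-1.15 to 0.26) in neutrophil-like cells. So was Ddb2 in endothelial-like cells, at 0.47 (-0.33 to 1.25).

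By class, 2 of 8 members counted as higher in endothelial-like cells, beside 9.53% of the 13352 genes tested there, and 1 of 8 in mesenchymal-like cells, beside 13% of 17204 genes. In macrophage and monocyte-like cells 0 were higher, beside 6.44%, and 1 was lower, beside 11.6% of 14112 genes. None was lower in endothelial-like cells (3.71% of all genes) or mesenchymal-like cells (6.79%). In dendritic-like cells 7 members had enough UMIs and none was higher or lower, beside 6.5% higher and 6.13% lower of 9616 genes. In neutrophil-like cells 6 had enough UMIs and none was higher or lower, beside 5.01% higher and 24.8% lower of 9267 genes. The mesenchymal-like share of 1 in 8 is near the background of that class.

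The cell types in which each gene was most abundant differed from gene to gene. The order given here is limited to 9 classes, each holding 100 or more cells per library, and leaves out lymphatic endothelial-, melanocyte- and sebaceous and hair-like cells, some of whose levels, from small counts, stood higher. Mgmt was highest in endothelial-like cells of both libraries. In the irradiated library keratinocyte-like cells came next at 70.1 CPM, then mesenchymal-like cells at 42.6 CPM and pericyte and smooth muscle-like cells at 35.6 CPM, whose intervals overlapped, and neutrophil-like cells were lowest at 1.05 CPM. In the control library keratinocyte-like cells stood only sixth of 9 classes at 13 CPM, with intervals overlapping those of the macrophage and monocyte-like cells above them. The place of the keratinocyte-like class in the order of Mgmt levels was thus second in the irradiated library and sixth in the control library.

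For Rev1 the place of keratinocyte-like cells changed too, and for both genes this restates the contrast by which they were chosen. Keratinocyte-like cells were first of 9 classes in the irradiated library at 64.2 CPM, with an interval above that of endothelial-like cells at 47.2 CPM. In the control library they were eighth at 22.4 CPM, above neutrophil-like cells at 17.5 CPM, and those intervals overlapped. Polk was highest in endothelial-like cells of both libraries, at 54.0 CPM in the irradiated and 48.1 CPM in the control library. In the irradiated library its interval overlapped that of keratinocyte-like cells at 50.2 CPM, which in the control library stood sixth.

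Ddb2 had its highest level in T and NK-like cells, at 42.0 CPM in the irradiated library (85 UMIs) and 32.3 CPM in the control library (27 UMIs), with intervals above those of the other 8 classes in both. Keratinocyte-like cells came next at 13.6 CPM in the irradiated and 14.3 CPM in the control library. Ercc5 was highest in keratinocyte-like cells of both libraries and Polh in keratinocyte-like or pericyte and smooth muscle-like cells, whose Polh intervals overlapped. Rrm2b was highest in endothelial-like cells (48.7 CPM) of the irradiated library and pericyte and smooth muscle-like cells (45.8 CPM) of the control library, again with overlap between those classes. Of the classes left out for their size, irradiated lymphatic endothelial-like cells had more, with 73.8 CPM of Rrm2b (57.5 to 93.2) and 63.2 CPM of Polk (48.3 to 81.4). Control lymphatic endothelial-like cells had 43.0 CPM of Rrm2b (29.8 to 60.1) and 29.1 CPM of Polk (18.4 to 43.6). Irradiated melanocyte-like cells had 69.9 CPM of Rev1 (39.1 to 115) and 28.0 CPM of Polh (10.3 to 60.9). Control melanocyte-like cells had 106 CPM of Rev1 (63.0 to 168) and 23.6 CPM of Polh (6.43 to 60.4). Xpc ranged least in the control library among the nucleotide excision repair members, 2.99-fold between the highest and the lowest class, against 9.41-fold for Ddb2 and 6.51-fold for Ercc5.

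Classes with fewer cells give levels only. Mgmt had 35.6 CPM in irradiated pericyte and smooth muscle-like cells (133 UMIs), against 20.6 CPM in control ones (92 UMIs), and 24.2 CPM in irradiated lymphatic endothelial-like cells (23 UMIs in 45 cells), against 7.59 CPM in control ones (6 UMIs in 55 cells). Sebaceous and hair-like cells had 48.2 CPM of Mgmt in the irradiated library (27 UMIs in 19 cells), against 7.31 CPM in the control library (9 UMIs in 41 cells). The irradiated level of Mgmt was the higher one in each of these 3 classes, from small counts. In Schwann-like cells Mgmt had 8.75 CPM in irradiated (15 UMIs) and 3.81 CPM in control cells (5 UMIs), in T and NK-like cells 24.7 CPM in irradiated (50 UMIs) and 19.1 CPM in control cells (16 UMIs), and in melanocyte-like cells 74.6 CPM in irradiated (16 UMIs in 10 cells) and 53.1 CPM in control cells (9 UMIs in 12 cells). Ddb2 had no UMI in any melanocyte-like cell.

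**Figure D4:**
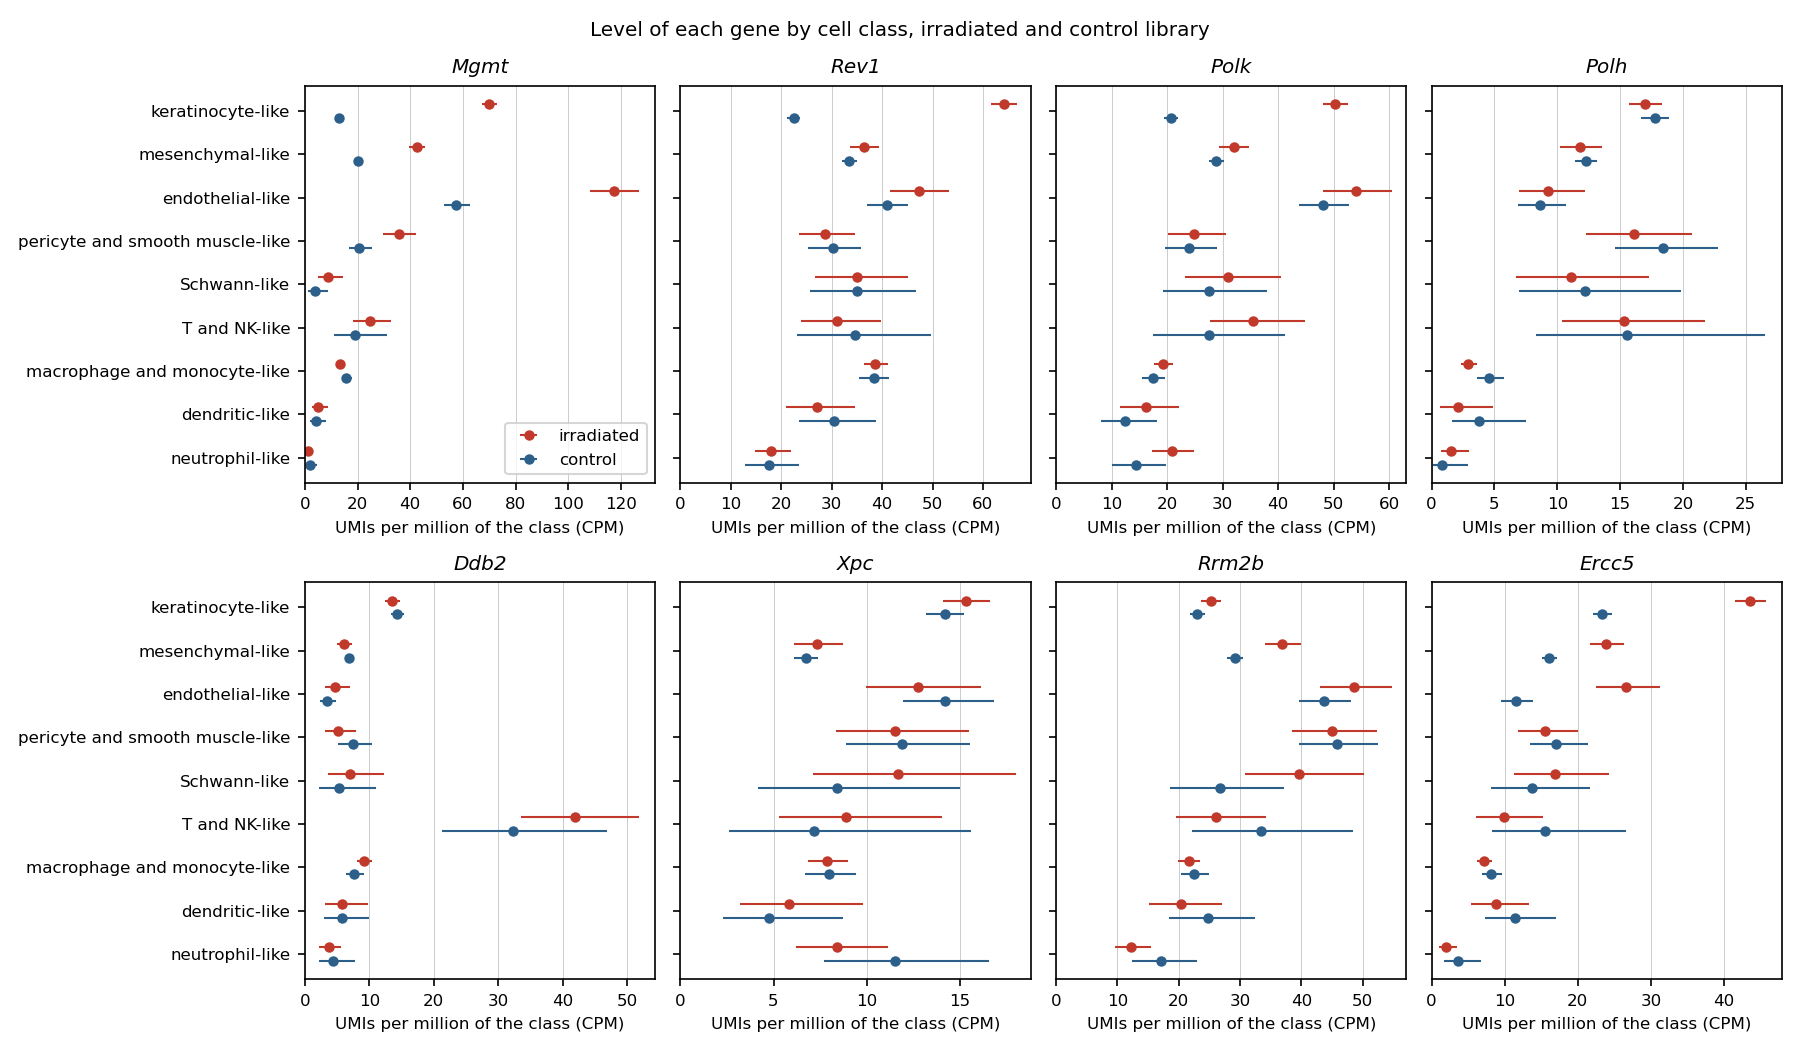
CPM of each member (x axes, linear from 0, different for each gene) in 9 classes, irradiated in red and control in blue, with 95% counting intervals. Keratinocyte-like cells move away from their control value for Mgmt (70.1 against 13 CPM), Rev1, Polk and Ercc5, and T and NK-like cells stand apart from the other 8 for Ddb2 in both libraries.

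The wider pathways were set beside the members by lists of genes. For lesion bypass, 2 of 17 listed genes measured in keratinocyte-like cells were higher, Rev1 and Polk, and 0 were lower. Of all genes tested there, 7.24% were higher and 7.91% lower. The median log2 ratio of the list was -0.06, where that of all genes tested was -0.03. Partners of Rev1 did not pass: Rev3l, the catalytic subunit of polymerase zeta, had 120 CPM in irradiated and 104 CPM in control cells (log2 0.21, 0.15 to 0.27), and Mad2l2, its accessory subunit, 7.06 CPM in irradiated and 7.24 CPM in control cells (log2 -0.04, -0.27 to 0.19). Rad18, the ligase that marks PCNA at stalled forks, had 23.4 CPM in irradiated and 28.0 CPM in control cells (log2 -0.26, -0.38 to -0.14).

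Of the 3 direct reversal genes Mgmt alone passed. Alkbh2, a dioxygenase that removes alkyl groups from DNA bases, had 6.36 CPM in irradiated and 6.40 CPM in control keratinocyte-like cells (log2 -0.01, -0.25 to 0.23). Of 27 nucleotide excision repair genes 1 was higher, Ercc5, and 0 were lower, with a list median of -0.02. Ddb1, the partner of Ddb2, had a log2 ratio of -0.04 (-0.09 to 0.01) and Ercc1, the nuclease partner on the 5′ side, -0.04 (-0.17 to 0.08). The members that counted as higher in keratinocyte-like cells were all the genes of these 3 lists that did so, beside 7.24% of all genes tested. They include the pair chosen by this contrast, so nothing is read from that overlap.

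Base excision repair had 0 higher and 2 lower of 18 genes in keratinocyte-like cells. The glycosylase Neil3 had 5.55 CPM in irradiated and 11.1 CPM in control cells (log2 -1.0, -1.23 to -0.77), and the glycosylase Mutyh 0.964 CPM in irradiated and 1.60 CPM in control cells (log2 -0.73, -1.33 to -0.16). None of 8 mismatch repair or 9 nucleotide supply genes passed in either direction, with list medians of -0.20 and -0.25. Rrm2b was the 1 nucleotide supply gene above 0 in this class, at 0.13. In mesenchymal-like cells, beside Mgmt, single genes of the first 3 lists were lower: the end-joining polymerase Polq, at 1.89 CPM in irradiated and 4.62 CPM in control cells (log2 -1.29, -1.86 to -0.77), and the DNA ligase Lig1, at 14.2 CPM in irradiated and 25.4 CPM in control cells (log2 -0.84, -1.04 to -0.65). There, 4 of 18 base excision repair genes (Neil3, Ung, Fen1 and Parp1) were lower. Of 9 nucleotide supply genes Dctd, the dCMP deaminase, was lower (log2 -1.03, -1.32 to -0.75), and Samhd1, a deoxynucleotide triphosphohydrolase, was higher at 100 CPM in irradiated and 57.9 CPM in control cells (log2 0.79, 0.71 to 0.87).

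These lower values stood beside fewer dividing cells. At least 2 UMIs of mitosis genes were seen in 36.4% of irradiated and 50.6% of control keratinocyte-like cells, and 3 of 20 mitosis genes were lower there, with a list median of -0.45. Of all genes tested in keratinocyte-like cells, 7.91% were lower. In mesenchymal-like cells 7 of 20 mitosis genes were lower, beside 6.79% of all genes. The part of cell division in the list medians was not tested. With dividing cells left out, the log2 ratio of Mgmt in keratinocyte-like cells was 2.75, that of Rev1 1.62, that of Polk 1.59 and that of Ercc5 1.04.

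The p53 target genes outside repair were listed for comparison, since p53 is the main transcription factor activated by DNA breaks. In keratinocyte-like cells 9 of 15 were higher and 0 lower (median log2 0.88), beside 7.24% of all genes higher and 7.91% lower. The cell cycle inhibitor Cdkn1a had 282 CPM in irradiated and 123 CPM in control cells (log2 1.20, 1.16 to 1.25), and Mdm2, the ligase that degrades p53, 112 CPM in irradiated and 60.9 CPM in control cells (log2 0.88, 0.81 to 0.94). The widest ratios were those of Eda2r (2.32, 2.08 to 2.56), Trp53inp1 (1.99, 1.90 to 2.07) and Ccng1 (1.48, 1.39 to 1.58), and the interval of Eda2r overlaps that of Mgmt.

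Among mesenchymal-like cells 11 of 15 p53 targets were higher (median log2 1.18), beside 13% of all genes, with Cdkn1a at 347 CPM in irradiated and 36.7 CPM in control cells (log2 3.24, 3.17 to 3.31), while Mgmt was at 1.08 and Rev1 and Polk were at 0.12 and 0.15. Among endothelial-like cells 14 of 15 were higher (median log2 1.34), beside 9.53% of all genes, with Cdkn1a at 567 CPM in irradiated and 107 CPM in control cells (log2 2.41, 2.31 to 2.51). Cdkn1a was further apart between the libraries in the stromal classes than in keratinocyte-like cells, and Rev1 and Polk less far. Rev1 was chosen by its keratinocyte value, and the part of p53 in the values of the members was not tested. Other p53 targets did not all follow Cdkn1a. Ccng1 was at 1.49 (1.39 to 1.58) in mesenchymal-like and 2.05 (1.78 to 2.32) in endothelial-like cells, beside 1.48 in keratinocyte-like cells. Mdm2 was at 1.11 (1.02 to 1.19) in mesenchymal-like and 0.91 (0.75 to 1.07) in endothelial-like cells, beside 0.88 in keratinocyte-like cells.

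**Figure D5:**
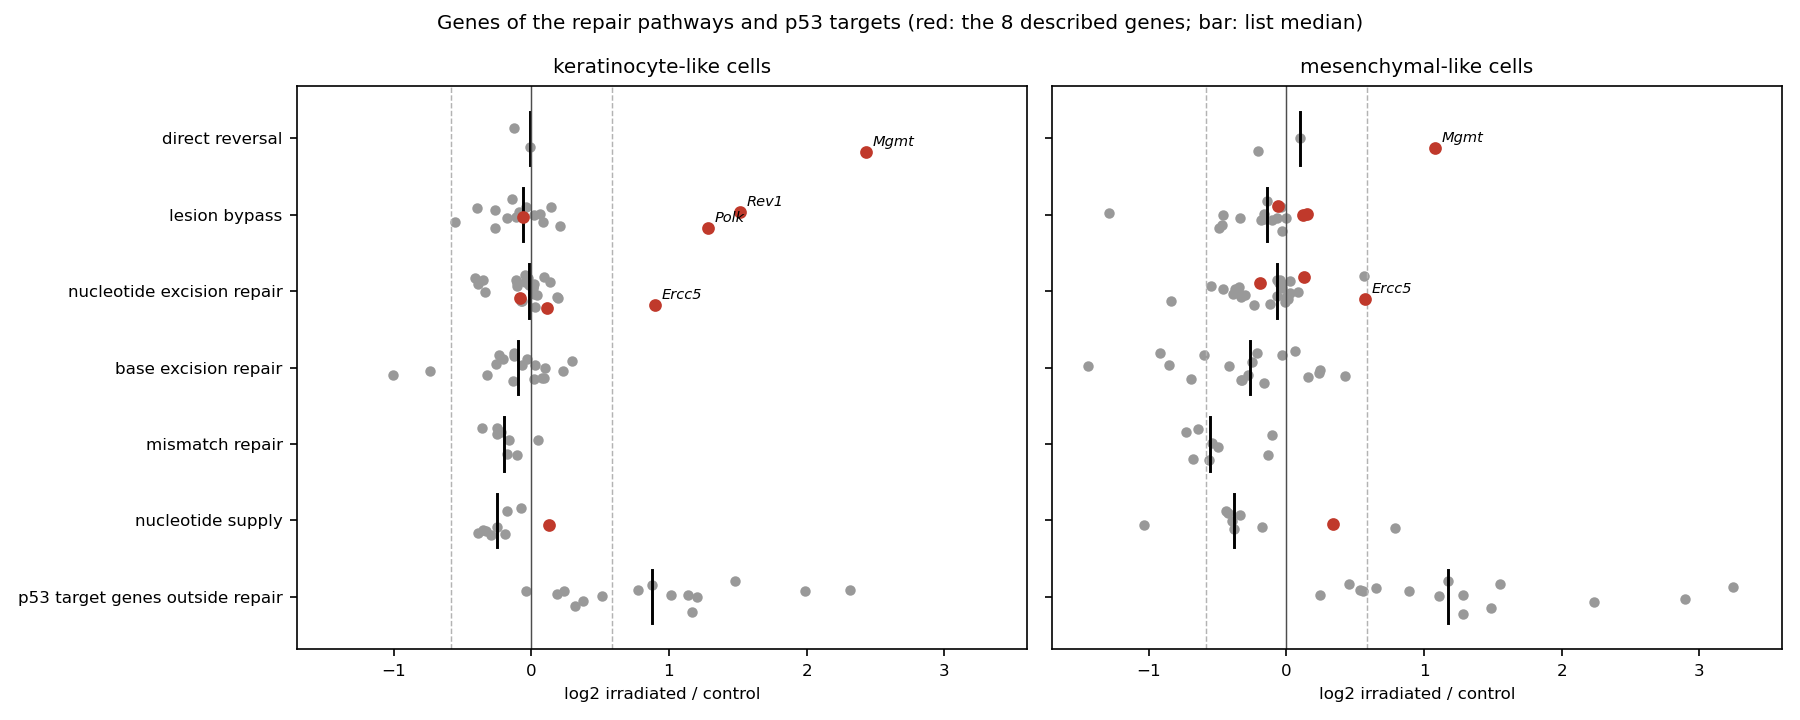
Log2 ratio of irradiated to control CPM (x axis) of each measured gene in 6 repair lists and the p53 target list (rows) for keratinocyte-like and mesenchymal-like cells, with the 8 members in red, other genes in grey, list medians as black bars, and dashed lines at 1.5-fold. Mgmt, Rev1, Polk and Ercc5 lie to the right of their lists in keratinocyte-like cells, where the list medians are -0.01, -0.06 and -0.02.

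Transcripts of other cell types also differed within the keratinocyte-like class. All 6 melanocyte markers were higher, with a summed level of 60.4 CPM in irradiated and 20.3 CPM in control cells, and none was at 0. Of 12 T and NK markers 7 were higher, although their sum was lower, at 64.0 CPM in irradiated and 76.1 CPM in control cells. Red cell markers summed to 181 CPM in irradiated and 48.5 CPM in control cells, with 4 of 7 higher and Slc4a1 at 0 in both libraries. Macrophage and monocyte markers summed to 2311 CPM in irradiated and 1450 CPM in control cells (3 of 13 higher, 1 lower), and mesenchymal markers to 553 CPM in irradiated and 1162 CPM in control cells (9 of 10 lower). Of the 9 endothelial markers 7 were lower and none was at 0, with a sum of 13.8 CPM in irradiated and 31.7 CPM in control cells. In the endothelial-like cells themselves that sum was 7105 CPM in the irradiated and 6472 CPM in the control library. Since endothelial-like cells carry the most Mgmt, keratinocyte-like cells with a UMI of any endothelial or melanocyte marker were left out in a setting chosen after seeing the data. In the remaining 576 irradiated and 1170 control cells the log2 ratio was 2.29 for Mgmt, 1.42 for Rev1, 1.20 for Polk and 0.82 for Ercc5. The part of the other cell types' transcripts was not tested further.

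The endothelial-like and mesenchymal-like classes had foreign transcripts too. Keratinocyte markers summed to 1510 CPM in irradiated and 600.5 CPM in control endothelial-like cells (8 of 12 higher). In the same class macrophage and monocyte markers summed to 718 CPM in irradiated and 345 CPM in control cells (10 of 13 higher), and neutrophil markers to 322 CPM in irradiated and 59.8 CPM in control cells (7 of 9 higher, with Ly6g at 0 in both). Macrophage and monocyte markers summed to 739 CPM in irradiated and 231 CPM in control mesenchymal-like cells (13 of 13 higher). Tendon cell markers, looked for because the labelled tissue is a tendon injury, summed to 3334 CPM in irradiated and 2695 CPM in control mesenchymal-like cells. The part of these transcripts in the values of Mgmt and Ercc5 was not tested in those classes.

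Genes whose level ran most alike with each member were sought over 18 class sums (9 classes in each library) by Pearson correlation of log2(CPM + 1), among 13585 genes. The points share a library, a depth or a cell type with one another and are not independent, so the values are descriptions. Mgmt was nearest to Ints3 (0.90), Uqcc3 (0.87) and Zhx3 (0.87), and Rev1 to Zrsr2 (0.84), Cpped1 (0.82) and Supt5 (0.80). Polk was nearest to Rhpn2 (0.90), Bbc3 (0.89), which is on the p53 target list, and Arhgef28 (0.87), and Ercc5 to Nudcd1 (0.94), Rarg (0.94) and Noc3l (0.93).

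Polh was nearest to Kif20b (0.97), Cenpm (0.96) and Rora (0.96), of which Kif20b and Cenpm encode a mitotic kinesin and a centromere protein. Ddb2 was nearest to Faah (0.93), Cntn1 (0.92) and Trbc2 (0.91), the last encoding a constant region of the T cell receptor. Rrm2b was nearest to Oip5os1 (0.95), Rtl8a (0.94) and Dnajc18 (0.93), and Xpc to Kcnh1 (0.85), Id1 (0.84) and Nqo1 (0.84). Between members, the correlation was 0.75 for Mgmt with Rev1, 0.78 for Mgmt with Polk, 0.75 for Mgmt with Ercc5 and 0.81 for Polh with Ercc5, and only -0.03 for Ddb2 with Xpc, although both recognise lesions in the same pathway. The class sums include the keratinocyte contrast by which Mgmt and Rev1 were chosen, so nothing is read from their correlation.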

How the data were processed

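The deposited values are UMI counts per gene and barcode from single-cell 3′ v3 libraries, without normalisation. The submitters' processing notes name Cell Ranger 5 and the build mm10, and the version is 5.0.1 per the file headers. Barcodes under 500 genes or 1000 UMIs, or with over 10% mitochondrial UMIs, were dropped, and doublets were called per library with Scrublet in scanpy 1.11.5 and left out. Its automatic thresholds differed, 0.359 in the irradiated and 0.237 in the control library, which called 74 (1.03%) and 529 (5.73%) cells, so an equal threshold was an alternative.

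The 2000 most variable genes, after scaling each cell to 10000 UMIs and taking logs, gave 30 principal components. Both libraries were clustered together without integration (15 neighbours, Leiden resolution 1.0, leidenalg 0.10.2, Python 3.11.15). Clusters were named where at least 3 fixed markers stood out, and the handling of related lineages and of clusters with other markers among their top 10 genes was settled after the clusters had been seen. For each class, a gene's UMIs were added up within each library. Ratios have exact conditional Poisson intervals and shares exact Clopper-Pearson intervals at 95% (scipy 1.17.1), which cover counting error only. The ratio step was tested on simulated counts.

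The members and the gene lists were chosen with earlier results of these data known. Named beside the members were up to 3 genes per list past the size rule with the widest ratios in keratinocyte-like and in mesenchymal-like cells, the 3 nearest genes to each member by correlation, and Cdkn1a, Mdm2, Ccng1 and Mki67. Partner genes that did not pass (Rev3l, Mad2l2, Rad18, Alkbh2, Ddb1, Ercc1) were chosen after their values were seen. Gene positions came from GENCODE M21, and 5 of 8 members had a RefSeq promoter entry. Results for a few listed genes are not reported here.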

Additional observations from a re-analysis of the deposited data

How the results depend on the processing

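No paired analysis was possible because each group is 1 library and the labels carry no replicate numbers. No called ratio changed sign under any alternative, while several ratios that were not called did, such as Ddb2 in keratinocyte-like cells (-0.08, and 0.52 thinned) and Mgmt in macrophage and monocyte-like cells (-0.23, and 0.43 with clusters weighted alike). The 8 called ratios kept their call in 90 of 96 alternative values, and the 40 others kept theirs in 385 of 395, the 2-fold rule not counted. In keratinocyte-like cells the log2 ratio of Mgmt (2.43) was 2.06 with clusters weighted alike, 2.75 with dividing cells left out, 2.61 with cells thinned to 2000 UMIs, 2.59 without cluster 8, 2.31 without cluster 12 and 2.29 without cells holding an endothelial or melanocyte marker UMI, the last being an alternative added after seeing the data. That of Rev1 (1.52) was 1.20 with clusters weighted alike, 1.16 thinned, 1.69 without cluster 8, 1.36 without cluster 12 and 1.399 without cluster 21. Both kept their call in all of these, and the causes were not tested. Members counted as higher in mesenchymal-like cells were 2 in place of 1 with ratios centred on the median of all genes, with clusters weighted alike (both adding Ercc5) and thinned (adding Rrm2b). Thinning also took Ercc5 in endothelial-like cells (1.21) to 0.55 and out of the call, and brought Polk there (0.17) to 0.64 and into it. A 2-fold rule left 3 of the 4 members of keratinocyte-like cells, without Ercc5. The 1 lower member of macrophage and monocyte-like cells, Polh, became 0 under centring, Leiden resolution 2.0, clusters weighted alike, dividing cells left out, thinning and a 2-fold rule. In dendritic-like cells 1 was higher under a stricter cell filter (Polk) and 1 lower with every cell counted alike (Rev1). In neutrophil-like cells 1 (Polk) was higher under centring, with every cell counted alike, with clusters weighted alike and with dividing cells left out. Mgmt in neutrophil-like and dendritic-like cells, at 12 UMIs or fewer per library, and Polh in both are limited by depth.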

Other observations

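In macrophage and monocyte-like cells 6 of 9 nucleotide supply genes were lower and 1 was higher, with a list median of -0.90 on the log2 scale, beside 11.6% of all genes lower, 6.44% higher and a median of -0.12. Rrm2, the S phase subunit of ribonucleotide reductase, had 2.84 CPM in irradiated and 9.64 CPM in control cells (log2 -1.76, -2.17 to -1.36). Its relative Rrm2b had a log2 ratio of -0.06 (-0.25 to 0.13). Dut, which removes dUTP, had 10.5 CPM in irradiated and 24.5 CPM in control cells (log2 -1.23, -1.45 to -1.0). The 1 higher gene was Dck, the deoxycytidine kinase of the salvage pathway, with 105 CPM in irradiated and 52.9 CPM in control cells (log2 0.98, 0.87 to 1.09). In the same class 18 of 20 mitosis genes were lower, and the part of dividing cells in these values was not tested.

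In endothelial-like cells Primpol, a primase that restarts synthesis past lesions, was lower, at 4.74 CPM in irradiated and 8.52 CPM in control cells (log2 -0.85, -1.54 to -0.19). The genes given here beside the members were named after their values were seen.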
